A study of Dunaliella tertiolecta with 6 samples.

Results

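The genes described here encode the mitochondrial respiratory chain of the green alga Dunaliella tertiolecta. They comprise 74 nuclear genes and all 7 protein genes of the mitogenome, 81 of the 14354 genes in the expression table. The annotated names of the nuclear genes, RIP5 apart, mark subunits or assembly factors of complexes I to IV, the ATP synthase associated (ASA) proteins or the alternative oxidase. RIP5 was included by its symbol, and its role is not given in the annotation. The rule for membership uses gene names and position alone, not expression values, but it was chosen with earlier results of these data known. Wild-type vegetative cells of strain UTEX LB 999, a wall-less alga of saline water, were grown in shaken liquid culture (140 rpm) at 24 °C in constant light with 2 M NaCl. The 3 flasks without added iron (0 µM) were compared with 3 flasks that received 1.5 µM iron. Growth before harvest is given as 2 d in the sample labels and as 3 days in the growth protocol. Iron carried over in the medium or the cells was not analysed here.

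Poly(A)-selected RNA was read as 50 nt single-end reads, and levels are FPKM, which relate the fragments of a gene to its transcript length and to all mapped reads. Library sums of FPKM ran from 808592 to 898151 without added iron, below those of the libraries with iron (982304 to 1021467), and 12253 to 12509 genes had a value above 0. Read totals were not used here. Levels are given per library in the order replicate 1, 2 and 3, and as mean ± SD (n = 3 libraries). Fold changes are 0 µM against 1.5 µM on the log2(FPKM + 1) scale, from limma fitted over 11273 genes, with p-values adjusted over all of them and called at 0.05. All 81 genes had a mean of at least 1 FPKM and were tested. In such bulk libraries, fewer cells of a type and less RNA per cell cannot be told apart.

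The respiratory chain passes electrons from NADH (complex I) and succinate (complex II) through ubiquinone and complex III to cytochrome c and complex IV, which reduces oxygen. The complexes hold iron as iron-sulfur clusters (I, II and III) and as heme (II, III and IV), and the alternative oxidase, which bypasses complexes III and IV, holds a diiron center. The ATP synthase, whose peripheral stalk in chlorophycean algae is built from ASA proteins, contains no iron. In these algae several subunits that are mitochondrially encoded in most organisms come from nuclear genes, among them NUO3, NUO11, COX2A, COX2B and COX3.

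Without added iron, the nuclear genes for the core subunits of complex I, all subunits of complex II and the large subunits of complex III fell, most small accessory subunits did not pass the test, and some genes of the iron-free ATP synthase rose. All 11 nuclear members with an assigned iron cofactor fell, with log2 fold changes from -0.32 (NUO6) to -1.55 (SDH2) and a median of -0.80. Of these 11, 9 were still called lower with equal library sums and 8 with replicates 1 and 2 only. Of the 63 nuclear members without an assigned iron cofactor 19 fell, 4 rose and 40 did not pass, with a median of -0.01. RIP5, whose cofactor is not known, was counted among these 63. These classes also differed in coding length, with medians of 897 nt for the 11 and 447 nt for the 63. All 4 nuclear core genes of complex I without an iron cofactor fell too. Whether the contrast follows the iron cofactor, the length or the kind of subunit was not tested. Over all genes tested the median was -0.03. Of all 81 members, 32 fell, where the share of all tested genes called lower was 18.7%, and 4 rose, where the share called higher was 11.6%. The libraries of the iron levels did not overlap for 45 members, 33 lower and 12 higher without iron, where 47.5% of all tested genes were free of overlap. The share of members without overlap in either direction was thus near that background. By direction, 3152 of the 11273 tested genes were lower without overlap and 2208 higher, so the members leaned more to the lower side.

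How many members rose changed with the scaling. Setting all library sums equal shifted the median over all tested genes from -0.03 to 0.17, and 21 members were lower and 31 higher, where 9.63% and 28.3% of all genes were called lower and higher. Under quantile normalization 29 were lower and 18 higher, against 17.8% and 15.1% of all genes. Relative to the median of all genes, the nuclear core of complex I stood at -0.69 as deposited, -0.66 with equal sums and -0.67 under quantile normalization, and the accessory subunits of complex I at 0.13, 0.15 and 0.20. With the replicate number as a block 34 members were lower and 10 higher, against 21% and 14.3% of all genes, so the higher calls were near the background. With replicates 1 and 2 only 19 members were lower and 0 higher, against 10.1% and 4.88% of all genes.

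**Figure D1:**
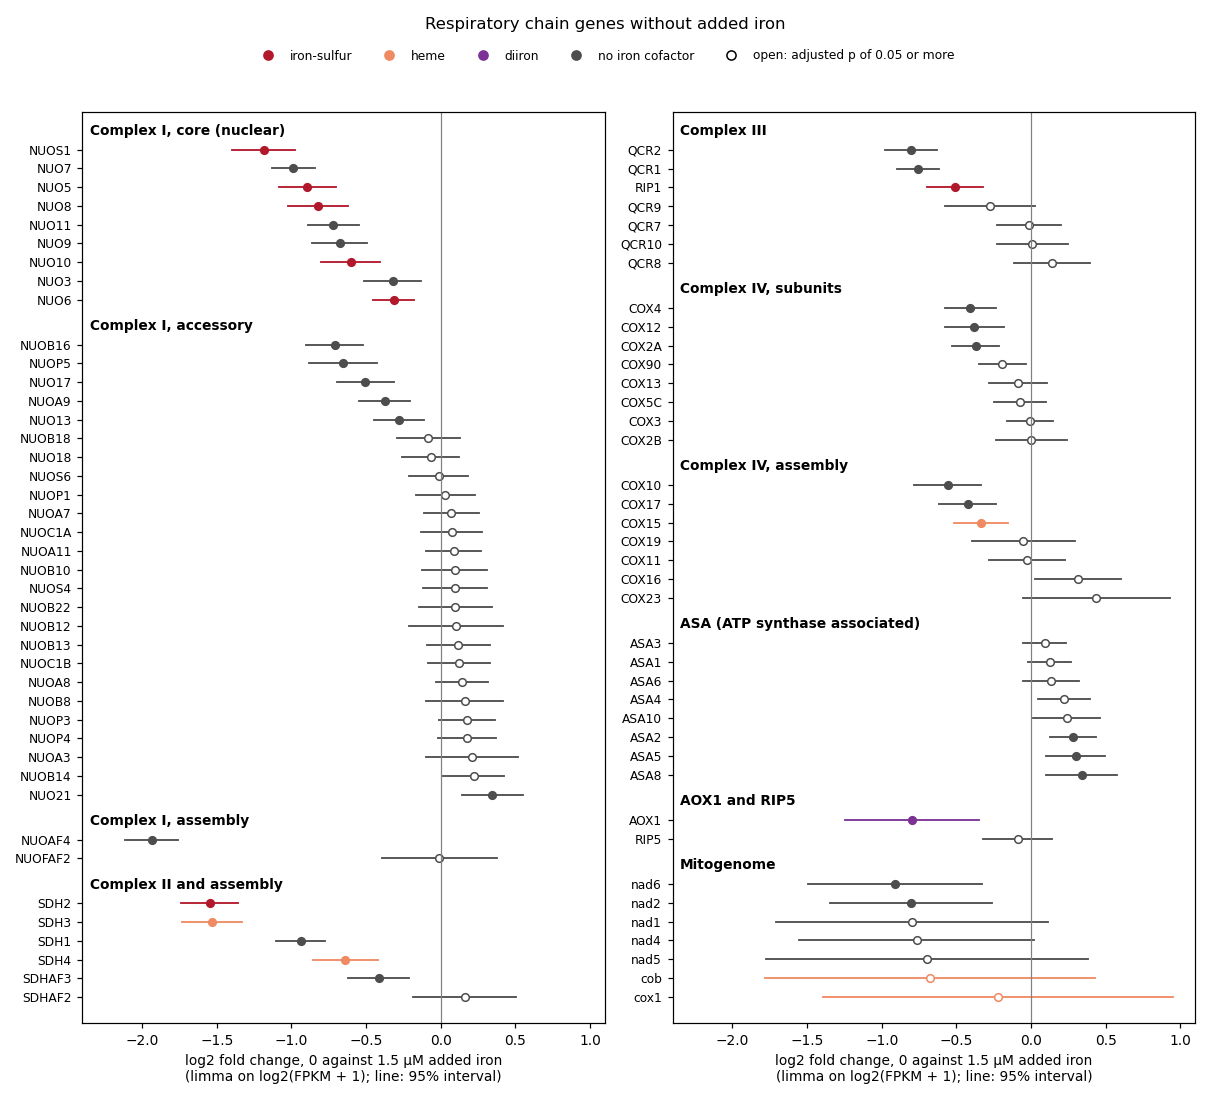
Log2 fold change of each of the 81 members, 0 against 1.5 µM added iron, with its 95% interval from limma on log2(FPKM + 1), grouped by complex and coloured by iron cofactor. Filled points passed the test at an adjusted p of 0.05. All 11 nuclear genes with an assigned iron cofactor lie to the left of 0, and so do all 9 nuclear core genes of complex I, whereas the ASA genes lie to the right.

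Complex I oxidizes NADH in its matrix arm and pumps protons through its membrane arm. All 9 nuclear genes for its conserved core subunits fell, where 18.7% of all tested genes were called lower. Their median log2 fold change was -0.72, and in each of them every library without iron lay below every library with iron. This grouping into core and accessory subunits was made after the values were seen, from the names used in the related alga Chlamydomonas. NUOS1, the largest subunit of the matrix arm and a carrier of iron-sulfur clusters, measured 20.04, 23.9 and 24.0 FPKM at 0 µM and 53.4, 54.1 and 50.5 FPKM at 1.5 µM. Its level fell to 43.0% (log2 fold change -1.19, SE 0.09, limma adjusted p = 7.831e-05).

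NUO5 and NUO6 form the tip of the matrix arm, where NADH is oxidized, and each holds an iron-sulfur cluster. NUO5 measured 38.2, 43.5 and 41.3 FPKM at 0 µM and 80.4, 71.5 and 79.1 FPKM at 1.5 µM (log2 fold change -0.89, limma adjusted p = 0.0002015). NUO6, which binds the flavin, measured 75.5, 78.3 and 75.9 FPKM at 0 µM and 97.3, 94.7 and 94.6 FPKM at 1.5 µM. NUO6 thus kept 80.1% of its level and had the smallest fall of the 9 (-0.32, limma adjusted p = 0.006968). It was not called with equal sums (-0.09) or with replicates 1 and 2 only.

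NUO8 and NUO10 carry the clusters that pass electrons on towards ubiquinone. NUO8 measured 86.9, 93.9 and 78.4 FPKM at 0 µM and 162.5, 152.4 and 145.6 FPKM at 1.5 µM (-0.82, limma adjusted p = 0.0003994). NUO10 measured 84.6, 96.8 and 80.4 FPKM at 0 µM and 135.4, 126.8 and 135.6 FPKM at 1.5 µM (-0.60, limma adjusted p = 0.001812). Core subunits without a cluster fell as well. NUO7, which lines the ubiquinone site, measured 66.2, 63.0 and 64.3 FPKM at 0 µM and 129.9, 125.6 and 131.2 FPKM at 1.5 µM, a fall to 50.1% (-0.99, SE 0.06, limma adjusted p = 2.78e-05). NUO9, its neighbour in the arm, fell by 0.68 on the log2 scale. The membrane-arm genes NUO11 (-0.72) and NUO3 (-0.32) fell too. NUO3 lost its call in 6 of 19 alternatives, among them equal sums (-0.10) and the fits without 0 µM replicate 1, 0 µM replicate 3 or 1.5 µM replicate 1. The 5 cluster-bearing core genes had a median of -0.82 and the 4 without a cluster a median of -0.70. The difference between those medians was not tested.

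**Figure D2:**
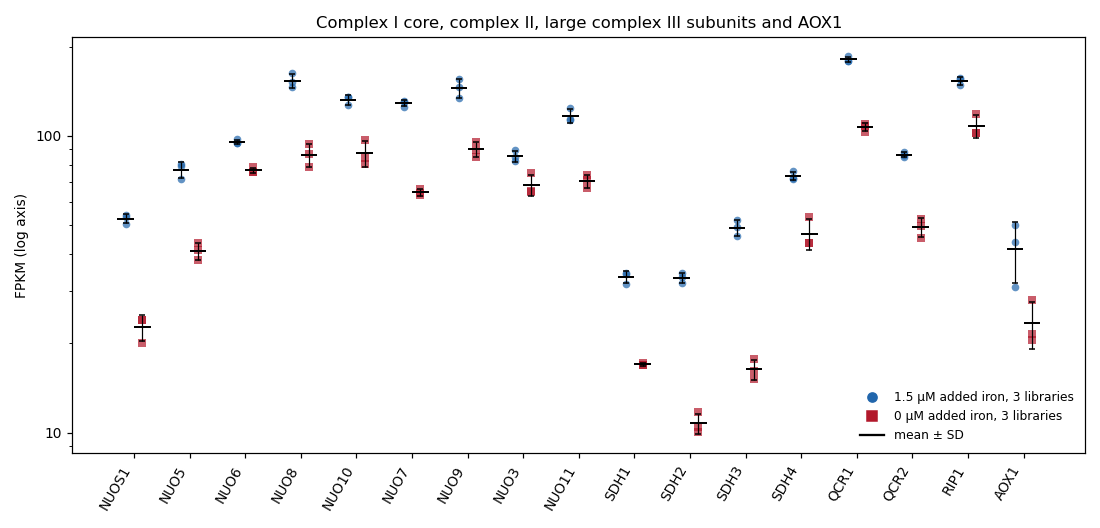
FPKM (log axis) in each of the 6 libraries for the nuclear core of complex I, the subunits of complex II, the large subunits of complex III and AOX1, with the mean ± SD of 3 libraries at each iron level. In all 17 genes the libraries without added iron lie below those with 1.5 µM, with the widest gaps for NUOS1, SDH2 and SDH3 and the largest spread for AOX1.

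Most accessory subunits of complex I, which surround the core and carry no iron, did not pass. Of 25 such genes 5 fell, 1 rose and 19 did not pass, with a median of 0.09. Of all tested genes 18.7% were called lower and 11.6% higher, so the share that fell was near that background. The 5 that fell were NUOB16 (-0.71), NUOP5 (-0.66), NUO17 (-0.50), NUOA9 (-0.37) and NUO13 (-0.28). The calls of NUOB16, NUOP5 and NUO17 held in all 19 alternatives. NUOA9 was no longer called under equal sums or in replicates 1 and 2 alone, nor was NUO13 in 9 alternatives, the fits without 0 µM replicate 1 or 3 and without 1.5 µM replicate 2 or 3 included. NUO21 rose, with 176.9, 218.2 and 186.7 FPKM at 0 µM and 151.0, 149.5 and 154.9 FPKM at 1.5 µM (0.35, limma adjusted p = 0.02219). Leaving out any single library with iron took the call away (adjusted p from 0.05255 to 0.05707), as did a fit with replicates 1 and 2 only.

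The 19 accessory genes that did not pass had log2 fold changes from -0.08 (NUOB18) to 0.22 (NUOB14), and their 95% intervals spanned -0.30 to 0.52 in all. They ranged from 97.7 FPKM (NUOC1B) to 645.3 FPKM (NUOA3) on average at 1.5 µM. With equal sums 16 of the 25 accessory genes were called higher and 3 lower, and with the replicate block NUOA3 (0.21) and NUOB14 (0.22) joined NUO21 as higher. Of all tested genes 28.3% were called higher and 9.63% lower with equal sums, and 14.3% higher with the replicate block. NUOC1A and NUOC1B, lettered copies with the same coding length of 363 nt, had similar levels (113.6 ± 7.18 and 97.7 ± 7.32 FPKM at 1.5 µM), and reads shared between such copies cannot be told apart here. The sum over all accessory genes was 4464 ± 391 FPKM at 0 µM and 4365 ± 182 FPKM at 1.5 µM, less than the spread apart. The sum over the 9 core genes was 607.5 ± 31.4 FPKM at 0 µM and 987.5 ± 21.0 FPKM at 1.5 µM.

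NUOAF4, named as an assembly factor of complex I, had the largest fall of all 81 genes. It measured 15.2, 16.7 and 14.9 FPKM at 0 µM and 65.3, 61.3 and 61.0 FPKM at 1.5 µM, a fall to 25.0% (-1.94, SE 0.08, limma adjusted p = 3.627e-06). The gene lies on scaffold_12 from 3266668 to 3279714 of the authors' assembly, with 16 coding segments. NUOFAF2, the other gene named for complex I assembly, did not pass (18.8 ± 0.33 FPKM at 0 µM and 19.3 ± 5.18 FPKM at 1.5 µM, -0.01).

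Complex II, succinate dehydrogenase, links the tricarboxylic acid cycle to the respiratory chain. All 4 subunit genes fell, where 18.7% of all tested genes were called lower. Their median was -1.24, the lowest among the nuclear complexes, and all 4 calls held in every one of the 19 alternatives. SDH2, the iron-sulfur subunit, measured 10.1, 10.4 and 11.7 FPKM at 0 µM and 34.4, 33.6 and 31.9 FPKM at 1.5 µM. It fell to 32.3% (log2 fold change -1.55, SE 0.08, limma adjusted p = 1.336e-05). SDH1, the flavoprotein that oxidizes succinate and holds no iron, measured 16.9, 17.2 and 16.9 FPKM at 0 µM and 34.6, 31.7 and 34.1 FPKM at 1.5 µM (-0.94, limma adjusted p = 7.741e-05). The iron-free subunit thus kept 50.7% of its level.

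SDH3 and SDH4 anchor the enzyme in the membrane and together hold a heme. SDH3 measured 15.2, 16.1 and 17.7 FPKM at 0 µM and 46.0, 49.4 and 51.9 FPKM at 1.5 µM, a fall to 33.3% (-1.53, limma adjusted p = 1.682e-05). SDH4 measured 43.7, 53.2 and 43.7 FPKM at 0 µM and 71.7, 75.9 and 72.0 FPKM at 1.5 µM, a fall to 64.0% (-0.64, limma adjusted p = 0.002092). The 95% intervals of the SDH3 change (-1.73 to -1.33) and the SDH4 change (-0.86 to -0.42) did not overlap, although the difference itself was not tested. These genes are neighbours on scaffold_15, transcribed away from each other with 216 bases between their gene models. SDH3 lies from 745602 to 749718 on the minus strand and SDH4 from 749935 to 752089 on the plus strand. Of the assembly factors, SDHAF3, known in yeast and animals to act in the maturation of the iron-sulfur subunit, fell by 0.42, although not with equal sums or with replicates 1 and 2 only. SDHAF2, which helps attach the flavin, did not pass (0.16).

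Over the 6 libraries and 3341 named genes, those whose log2(FPKM + 1) values were most like SDH2 by Pearson's r were CYT1 (0.9990), CHLH1 (0.9978), a subunit of the magnesium chelatase of chlorophyll synthesis, and CGL93 (0.9976). All of them were called lower. With 6 libraries in groups of 3, any gene with a clean fall reaches a high r, so this is a description.

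In complex III, 3 of 7 genes fell and 4 did not pass, where 18.7% of all tested genes were called lower. QCR1 and QCR2, the large core proteins, and RIP1, the Rieske iron-sulfur protein, fell in all 19 alternatives. Grouping these 3 apart from QCR7 to QCR10 was done after the values were seen. QCR1 measured 108.3, 103.4 and 109.8 FPKM at 0 µM and 179.3, 179.4 and 185.7 FPKM at 1.5 µM (-0.75, limma adjusted p = 0.0001011). QCR2 measured 45.4, 52.5 and 49.6 FPKM at 0 µM and 86.1, 85.2 and 88.2 FPKM at 1.5 µM (-0.81, limma adjusted p = 0.0002167). RIP1 measured 102.3, 118.9 and 102.0 FPKM at 0 µM and 155.7, 157.0 and 148.1 FPKM at 1.5 µM, and it kept 70.1% of its level (-0.51, limma adjusted p = 0.002937). Its estimate was the smallest fall of these 3 genes, and the differences among them were not tested.

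The small subunits QCR7 (-0.01), QCR8 (0.14), QCR9 (-0.27) and QCR10 (0.01) did not pass, and their libraries overlapped. QCR9, the most abundant member at 1.5 µM, measured 873.0, 1218 and 930.8 FPKM at 0 µM and 1194, 1307 and 1123 FPKM at 1.5 µM. It was called lower without 0 µM replicate 2 and with the replicate block, but was 0.20 higher under quantile normalization. RIP5, which shares the symbol stem of the Rieske protein but whose role is not given in the annotation, did not pass (-0.09).

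In complex IV, 3 of 8 subunit genes fell and 5 did not pass, with a median of -0.14, where 18.7% of all tested genes were called lower. COX4 measured 383.1, 418.4 and 354.4 FPKM at 0 µM and 511.5, 504.8 and 512.3 FPKM at 1.5 µM (-0.41, limma adjusted p = 0.005477). COX2A, which with COX2B makes up the copper-holding subunit 2, measured 184.6, 193.3 and 172.2 FPKM at 0 µM and 232.2, 245.3 and 233.1 FPKM at 1.5 µM (-0.37, limma adjusted p = 0.006055). COX12 fell by 0.38. COX2A and COX12 were not called with equal sums, COX12 not under quantile normalization either, and none of the 3 was called with replicates 1 and 2 only.

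COX2B, the other part of subunit 2, went from 378.2 ± 30.5 to 379.5 ± 45.8 FPKM without iron (0.00, 95% interval -0.24 to 0.24). Its partner COX2A fell by 0.37, with an interval of -0.53 to -0.21. COX3 measured 341.6 ± 22.2 FPKM without iron and 342.8 ± 5.07 FPKM with it (-0.01, interval -0.16 to 0.15). Both COX2B and COX3 were called higher with equal sums. COX5C, COX13 and COX90 did not pass either, although COX90 (-0.19) passed with the replicate block.

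Of 7 genes for complex IV assembly 3 fell, where 18.7% of all tested genes were called lower. With equal sums 1 of these 7 was lower and 2 were higher, against 9.63% and 28.3% of all tested genes. COX10 and COX15 act in the synthesis of heme a. COX10 measured 19.1, 19.98 and 16.4 FPKM at 0 µM and 27.4, 29.4 and 26.3 FPKM at 1.5 µM (-0.56, limma adjusted p = 0.004316), and held its call in all 19 alternatives. COX15, itself a heme protein, measured 9.83, 9.79 and 10.2 FPKM at 0 µM and 12.1, 12.7 and 13.6 FPKM at 1.5 µM (-0.33, limma adjusted p = 0.0168). It did not pass in 5 alternatives, the fits without 0 µM replicate 2 (limma adjusted p = 0.06119) or 1.5 µM replicate 3 (0.0704) and with equal sums included. COX17, the copper chaperone, measured 224.3, 235.1 and 197.3 FPKM at 0 µM and 288.7, 282.4 and 308.9 FPKM at 1.5 µM (-0.42, limma adjusted p = 0.0079), a call lost under equal sums and in replicates 1 and 2 alone. The other copper delivery and assembly genes COX11 (-0.03), COX19 (-0.05), COX23 (0.44) and COX16 (0.31) did not pass, although COX16 and COX23 were called higher with the replicate block.

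The ASA proteins form the peripheral stalk of the mitochondrial ATP synthase. None of the 8 ASA genes fell, 3 rose and 5 did not pass, with a median of 0.23 and every estimate above 0. The shares of all tested genes were 18.7% called lower and 11.6% called higher. ASA2 measured 168.0, 178.8 and 164.9 FPKM at 0 µM and 137.1, 146.9 and 135.9 FPKM at 1.5 µM (0.28, limma adjusted p = 0.01682). ASA5 measured 408.5, 436.2 and 367.4 FPKM at 0 µM and 308.6, 350.6 and 322.8 FPKM at 1.5 µM (0.30, limma adjusted p = 0.0327). ASA8 measured 370.4, 404.2 and 323.4 FPKM at 0 µM and 261.2, 303.7 and 300.4 FPKM at 1.5 µM (0.34, limma adjusted p = 0.03992). In these 3 genes each library without iron lay above each library with iron.

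The same held for ASA1, ASA3 and ASA4, whereas ASA6 and ASA10 overlapped. ASA4 measured 274.8, 290.3 and 250.7 FPKM at 0 µM and 229.8, 244.1 and 225.4 FPKM at 1.5 µM and did not pass (0.22, limma adjusted p = 0.06167), but ASA4 and ASA10 were called higher without 0 µM replicate 3. None of the 3 calls held in all alternatives. ASA2 was not called in replicates 1 and 2 alone or without 0 µM replicate 2, 1.5 µM replicate 1 or 1.5 µM replicate 3. ASA5 was also lost without 0 µM replicate 1, and ASA8 without any library except 0 µM replicate 3. With the replicate block 5 of the 8 rose, ASA4 and ASA10 among them, and all 8 rose with equal sums and under quantile normalization. The share of all tested genes called higher was 14.3% with the block, 28.3% with equal sums and 15.1% under quantile normalization. Equal sums also moved the median of all tested genes from -0.03 to 0.17. The direction was the same in all 19 alternatives for each of the 8 genes.

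AOX1, the single gene named for the alternative oxidase, a diiron enzyme that hands electrons from ubiquinol directly to oxygen, fell without iron. It lies on scaffold_04 from 6299162 to 6303541. It measured 28.1, 20.5 and 21.5 FPKM at 0 µM and 50.1, 31.0 and 44.0 FPKM at 1.5 µM, so the groups came close but did not overlap. Its mean was 23.4 ± 4.13 FPKM without iron against 41.7 ± 9.78 FPKM with it (-0.80, SE 0.19, limma adjusted p = 0.01863). Replicate 1 was the highest library at both levels and replicate 2 the lowest, and with the replicate block the adjusted p was 0.002411. AOX1 did not pass when 0 µM replicate 2 was left out (limma adjusted p = 0.06458), nor without 0 µM replicate 3 (0.06377) or 1.5 µM replicate 3 (0.0603), nor with replicates 1 and 2 only (0.1549) and with equal nuclear sums (0.05375).

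The named genes most like AOX1 over the 6 libraries were SUFD1 (Pearson's r 0.9928), ZCP2A and ZCP2C (both 0.9885). SUFD1, named for a subunit of the plastid machinery of iron-sulfur cluster assembly, was called lower (-0.35). ZCP2A and ZCP2C (both -0.13) were not called.

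The 7 mitogenome genes, nad1, nad2, nad4, nad5 and nad6 for membrane subunits of complex I, cob for the heme protein cytochrome b of complex III and cox1 for the heme- and copper-holding subunit of complex IV, all lie on the plus strand. Their levels were low and uneven between libraries. At 0 µM cox1 measured 118.7, 25.4 and 78.1 FPKM, and at 1.5 µM it measured 65.6, 63.3 and 92.0 FPKM, so the groups overlapped widely (log2 fold change -0.22, 95% interval -1.40 to 0.95). The cob gene measured 21.6, 4.23 and 10.96 FPKM at 0 µM and 13.6, 17.5 and 20.4 FPKM at 1.5 µM (-0.68, interval -1.79 to 0.43). Neither heme gene passed, and the intervals include a fall as deep as that of SDH2 for cob.

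Of the nad genes, nad1 measured 18.6, 5.05 and 12.1 FPKM at 0 µM and 16.1, 18.6 and 23.3 FPKM at 1.5 µM, and nad5 measured 14.98, 3.45 and 11.2 FPKM against 11.4, 12.7 and 20.9 FPKM. The nad4 gene measured 6.19, 1.73 and 3.53 FPKM at 0 µM and 5.204, 6.46 and 8.44 FPKM at 1.5 µM. None of nad1 (-0.80), nad5 (-0.70) and nad4 (-0.77) passed. Without 0 µM replicate 1, however, nad1 (-1.18) and nad4 (-1.11) were called lower. The nad2 gene, at 2.42, 1.17 and 1.63 FPKM at 0 µM and 2.94, 3.20 and 5.29 FPKM at 1.5 µM, passed (-0.81, limma adjusted p = 0.03583). The nad6 gene, at 1.57, 1.73 and 2.33 FPKM at 0 µM and 4.21, 2.85 and 6.71 FPKM at 1.5 µM, passed too (-0.91, limma adjusted p = 0.03027). The nad2 gene did not pass once 0 µM replicate 2 was left out (limma adjusted p = 0.1109), nor without 0 µM replicate 3 (0.09339) or 1.5 µM replicate 3 (0.09087). The nad6 gene passed without 1.5 µM replicate 2 but not without any other library (limma adjusted p from 0.05011 to 0.09197). Neither nad2 nor nad6 passed with equal sums.

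All mitogenome genes but nad6 were highest in replicate 1 and lowest in replicate 2 of the libraries without iron. In 0 µM replicate 2 all 7 lay below the mean of the other 2 libraries of the group, with a median ratio of 0.329, while in 0 µM replicate 1 the median ratio was 2.17 and only nad6 lay below. Summed over the 7 genes, the libraries without iron held 184.1, 42.8 and 119.9 FPKM, and those with iron 119.2, 124.6 and 177.0 FPKM. The plastome share of all FPKM was also highest in 0 µM replicate 1 (2.23%, against 0.385% to 0.536% in the other 5 libraries). How far organelle RNA enters a poly(A)-selected library was not tested. Without 0 µM replicate 2, cox1 was 0.40 higher, and without 0 µM replicate 1 it was 0.69 lower on the log2 scale, and neither passed.

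**Figure D3:**
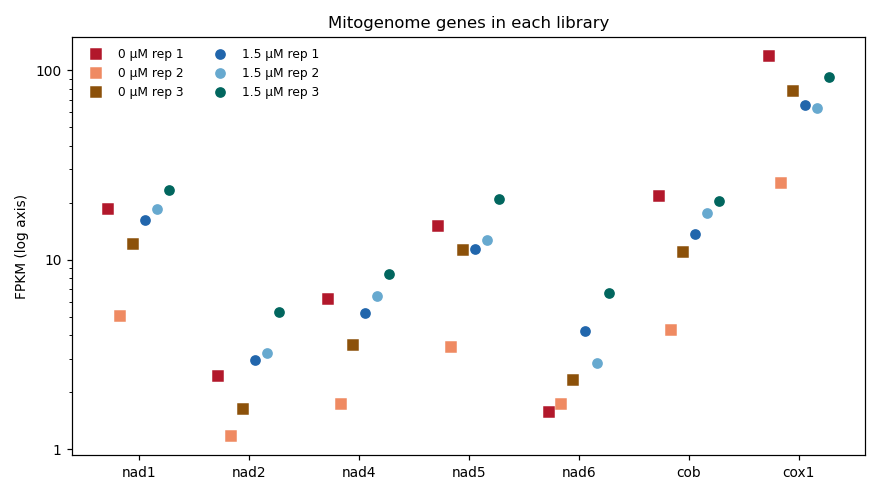
FPKM (log axis) of the 7 mitogenome genes in each of the 6 libraries, squares for 0 µM and circles for 1.5 µM added iron. The library of replicate 2 at 0 µM is the lowest for every gene except nad6, and only for nad2 and nad6 do all libraries without iron lie below all those with iron.

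Members that fell were longer, on the whole, than those that did not. Across the 74 nuclear members, Spearman's rho between coding length and log2 fold change was -0.46, and across the 36 of complex I it was -0.71, where all genes tested gave -0.18. Genes in one set of libraries share their normalization, and the part of length in the fold changes was not tested. Of the 30 nuclear members with at least 600 nt of coding sequence 21 fell and 1 rose, and of the 44 shorter ones 9 fell and 3 rose, a split chosen after the values were seen. Among all genes tested, 8861 were of at least 600 nt, of which 1770 fell and 941 rose, with a median of -0.05. Of the 2411 shorter ones 335 fell and 361 rose, with a median of 0.05.

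The exceptions ran both ways. ASA1 (1899 nt), ASA2 (1626 nt), ASA3, ASA4, COX3 (1179 nt), COX11, NUOA11, NUOS4 and SDHAF2 are at least 600 nt long and were not lower. SDH4 (363 nt), NUOP5 (402 nt) and NUOB16 (429 nt) are short and fell by 0.64 to 0.71. The library of replicate 2 at 0 µM was the highest of its group for 41 of the 44 short members, with a median ratio of 1.16 to the other libraries of the group, and for 20 of the 30 longer ones, with a ratio of 1.08.

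**Figure D4:**
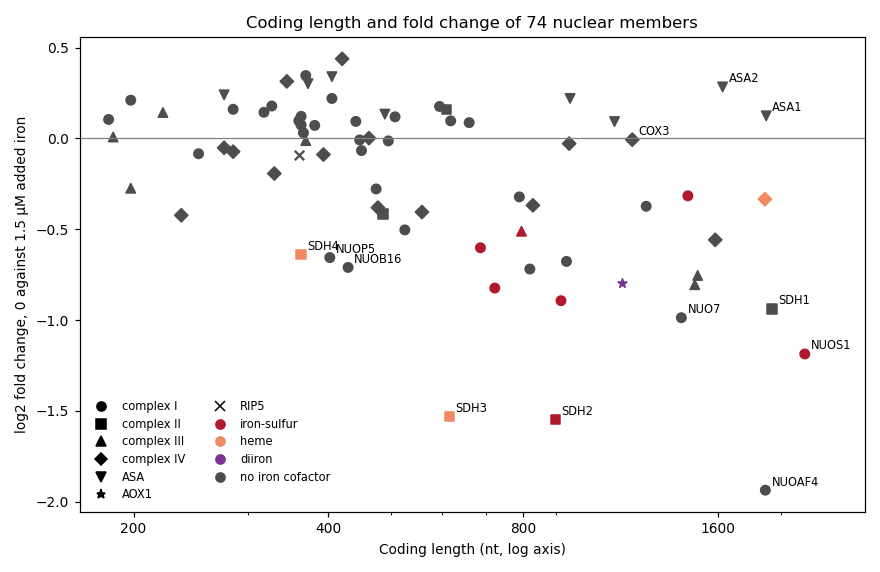
Coding length (nt, log axis) against log2 fold change, 0 against 1.5 µM added iron, for the 74 nuclear members, with symbols for the complex and colours for the iron cofactor. Long members such as NUOS1 and SDH1 lie low, but the ASA genes stay above 0 at every length.

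Genes that act beside the chain were taken from lists of symbols. All 3 genes with symbols of cytochrome c or c1 fell, where 18.7% of all tested genes were called lower. In the respiratory chain, cytochromes c and c1 are heme proteins that carry electrons through and from complex III. CYC1 measured 267.9, 301.4 and 231.3 FPKM at 0 µM and 683.6, 766.6 and 693.5 FPKM at 1.5 µM (-1.42, limma adjusted p = 6.573e-05). CYC4 fell from 45.8 ± 0.92 to 7.76 ± 1.85 FPKM (-2.44, limma adjusted p = 2.111e-05) and CYT1 from 106.0 ± 2.54 to 55.2 ± 3.23 FPKM (-0.93, limma adjusted p = 7.468e-05). The annotation does not say which of these symbols stands for which cytochrome. Their coding lengths were 315 nt (CYC1), 561 nt (CYC4) and 948 nt (CYT1). Whether each of them, CYC4 included, acts in the mitochondrion was not tested.

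Of 13 genes with ATP synthase symbols 7 rose and none fell, with a median of 0.25. With equal sums 10 rose (median 0.48), under quantile normalization 9, and with the replicate block 8. Of all tested genes 11.6% were called higher as deposited, 28.3% with equal sums, 15.1% under quantile normalization and 14.3% with the replicate block. ATP2, the catalytic beta subunit, measured 598.4, 593.2 and 589.4 FPKM at 0 µM and 455.7, 446.7 and 430.2 FPKM at 1.5 µM (0.42, limma adjusted p = 0.001223). ATP5 (0.36), ATP9A (0.35) and ATP9B (0.39), the last 2 for the membrane ring, rose as well, whereas ATP1A (0.12) and ATP15 (0.11) passed only under quantile normalization and with equal sums over all or nuclear genes. ATP11, ATP12 and ATP23, which in yeast name assembly factors, did not pass, but ATP12 (0.38) was called higher with the replicate block and with equal sums. The calls of ATP2, ATP5 and ATP9B held in all 19 alternatives. Those of ATP3, ATP6, ATP9A and ATP16 were lost without either of 0 µM replicates 1 and 2 or without 1.5 µM replicate 3, and all but ATP9A also without 1.5 µM replicate 1. Type II NAD(P)H dehydrogenases, flavoenzymes that can oxidize NADH in place of complex I, did not pass in any of the 5 genes (-0.27 to 0.27). However, NDA2 was called lower without 1.5 µM replicate 2, and NDA5 higher without 1.5 µM replicate 1 and with equal sums (0.48). Which of the 5 work in the mitochondrion was not tested.

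Among 20 genes with symbols of the tricarboxylic acid cycle or malic enzymes 8 rose, 2 fell and 10 did not pass. With equal sums 14 rose and 2 fell, under quantile normalization 10 and 2, and with the replicate block 9 and 2, SCLA1 (0.24) being the one added by the block. The list median moved from 0.25 to 0.47 with equal sums, where that of all tested genes moved from -0.03 to 0.17. Of all tested genes 18.7% were called lower as deposited, 9.63% with equal sums, 17.8% under quantile normalization and 21% with the block. The shares called higher are those given above for the ATP synthase list. ACH1 for aconitase, an iron-sulfur enzyme, fell from 169.0 ± 8.003 to 79.1 ± 2.75 FPKM (-1.08, limma adjusted p = 2.78e-05). FUM1 and FUM2, both named for fumarase, which hydrates the fumarate made by complex II, went opposite ways. FUM1 measured 6.43, 5.51 and 6.10 FPKM at 0 µM and 24.6, 21.3 and 24.4 FPKM at 1.5 µM (-1.80, limma adjusted p = 1.286e-05). FUM2 measured 53.6, 64.3 and 57.8 FPKM at 0 µM and 0.669, 0.835 and 1.24 FPKM at 1.5 µM (4.96, limma adjusted p = 4.985e-07). FUM2 was thus near 1 FPKM with iron and the higher of the pair without it. IDH2, named for isocitrate dehydrogenase, rose from 72.8 ± 2.66 to 225.9 ± 8.90 FPKM (1.62), and SCLB1 for succinyl-CoA ligase (0.61) and MDH4 (0.70) and MDH5 (0.52) for malate dehydrogenase rose too. The others that rose were OGD3 (0.46), and MME2 (0.38) and MME5B (0.59) for malic enzymes, the last 2 with calls lost when single libraries were left out. Some malate dehydrogenases work in the plastid, and the names do not say which.

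Of 4 genes for mitochondrial carriers 2 rose and 1 fell, where 11.6% of all tested genes were called higher and 18.7% lower. ANT1, the ADP/ATP translocase, measured 1467, 1540 and 1399 FPKM at 0 µM and 884.1, 843.5 and 840.5 FPKM at 1.5 µM (0.78, limma adjusted p = 8.61e-05). UCP1 and UCP2, named for uncoupling proteins, went opposite ways (0.44 and -1.43, limma adjusted p = 0.004786 and 9.183e-05).

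**Figure D5:**
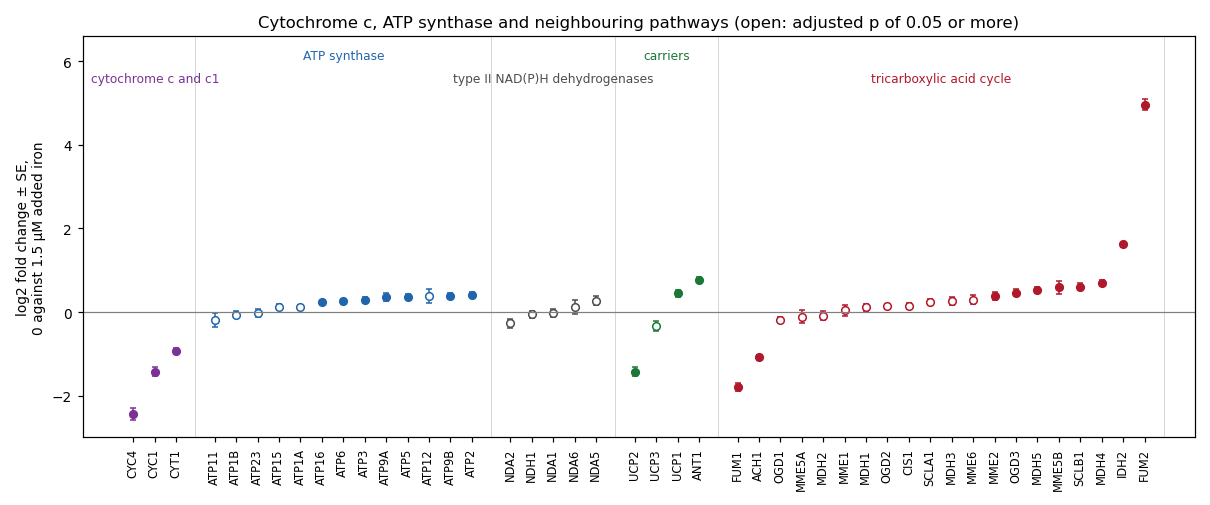
Log2 fold change ± SE (limma), 0 against 1.5 µM added iron, for 45 genes of 5 neighbouring lists. Filled points passed the test at an adjusted p of 0.05. The 3 cytochrome c symbols lie between -0.93 and -2.44, the ATP synthase genes between -0.18 and 0.42, and FUM2 stands highest at 4.96.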

How the data were processed

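RNA was measured in 6 libraries, 3 per iron level as labelled. The authors deposited FPKM values per gene and library. Per the series design text, poly(A)-selected RNA gave 50 nt single-end reads, which were aligned to the authors' own assembly. STAR 2.4.0j and Cuffdiff 2.0.2 are listed in the submitters' processing notes. The deposited annotation gave gene names, coordinates and coding lengths. Since FPKM hold no counts, count models were not fitted.

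Values were taken as log2(FPKM + 1), and genes with a mean of at least 1 FPKM were tested (11273) with limma 3.58.1 in R 4.3.3 (lmFit, eBayes with trend), two-sided, with Benjamini-Hochberg adjustment at 0.05. Fold changes on this scale understate those of low genes. The procedure was also run on simulated data, and no result given here rests on that run. Tables were joined with pandas 2.3.3 and figures drawn with matplotlib 3.10.9 in Python 3.11.15.

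The members and lists were chosen with earlier results of these data known. Genes given per library are those with an iron cofactor, all SDH subunits, AOX1 and the mitogenome genes, the 4 smallest p in complexes I, III and IV and the ASA group, and those called higher. Of the lists, CSL4, CSN2 and CSN5 were left out as unrelated symbols and CYC6 as a plastid protein. The sources do not say if each flask had its own preculture, and p-values then reflect only the variation among flasks, which may be technical.

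The labels number replicates 1 to 3 at each iron level. Deviations from the group means correlated at 0.239, 0.262 and 0.168 between libraries of the same number and at -0.22 to -0.0144 between others, over 11273 genes, so that libraries of the same number deviated together, which the labels do not state. The calls reported are from the fit without a block, and the fit with the replicate block is an alternative. The 19 alternatives were other pseudocounts, filters, scalings and eBayes settings, the replicate block, each library left out, replicates 1 and 2 only, and 1 gene per set of identical genes. No sequence is shown, since no genome sequence was used here.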

Additional observations from a re-analysis of the deposited data

How the results depend on the processing

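Of the 32 members that fell, 19 were called lower under all 19 alternatives, of the 4 that rose none was called higher in all of them, and of the 45 not called 11 were not called in all. The scaling of the libraries moved most counts. With equal sums 1086 genes were lower and 3189 higher (members 21 and 31), with equal nuclear sums 1075 and 3336 (members 20 and 34), and with replicates 1 and 2 only 1136 and 549 (members 19 and 0). Members higher were 18 under quantile normalization, 2 without the eBayes trend and 10 with the replicate block. With the replicate block 34 members were lower. The members the block added were QCR9 and COX90 among the lower and NUOA3, NUOB14, COX16, COX23, ASA4 and ASA10 among the higher, and it changed no other member's call. Leaving out each library in turn gave 1526 to 1910 genes lower and 795 to 1288 higher (795 without 0 µM replicate 2 and 855 without 1.5 µM replicate 3), and 27 to 31 members lower and 0 to 6 higher. The most members were higher without 0 µM replicate 3 and none without 1.5 µM replicate 1 or 3.

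Medians here are over all nuclear members of a complex, assembly factors included (36 for complex I, 6 for II and 15 for IV). They thus differ from the subunit medians given above. The median log2 fold change of complex I (-0.01 as deposited) was 0.131 under quantile normalization, 0.212 with equal sums and 0.221 with equal nuclear sums. That of complex II (-0.79) was -0.566 and -0.556 with equal and equal nuclear sums. That of complex III (-0.27) was 0.198 under quantile normalization, -0.045 with equal sums and -0.035 with equal nuclear sums. That of complex IV (-0.09) was 0.14 and 0.15 with equal and equal nuclear sums, and that of the ASA genes (0.23) was 0.402, 0.459 and 0.469 under these 3 scalings. With a library left out, the median of complex III ran from -0.419 (without 0 µM replicate 2) to -0.179 (without 0 µM replicate 1) and that of complex IV from -0.162 (without 0 µM replicate 2) to -0.020 (without 0 µM replicate 3). That of complex I lay between -0.042 and 0.021. QCR9 was 0.198 under quantile normalization. The cox1 change was 0.003 with equal sums and 0.013 with equal nuclear sums, and between -0.686 and 0.403 with a library left out. The equal sums shift every gene by construction, since the deposited sums differ between iron levels. The cause of the other changes was not tested. Read counts behind the low mitogenome values were not used here.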
